A study of Mus musculus with 6 samples.

Results

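Vasoconstrictor receptors and endothelin were examined in samples labelled as mouse aorta, on RNA of Trail knockout and wild-type mice. The genes were taken from a list of 9, made up of the vasopressin receptor Avpr1a, the angiotensin receptor Agtr1a, the endothelin receptors Ednra and Ednrb, the peptide gene Edn1, the alpha-1 adrenergic receptors Adra1a, Adra1b and Adra1d, and the serotonin receptor Htr2b. Each gene was measured by its single-symbol probe set of the highest mean signal. Of the 9 genes, 6 could be named this way, out of 19938 genes with a probe set of 1 symbol, and each of the 6 had 1 such probe set. No expression of Ednra, Adra1a or Adra1d is given here.

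The study compared 3 arrays of Trail knockout mice with 3 arrays of wild-type mice, hybridised with RNA labelled as coming from whole aorta. All mice were 6 weeks old, and the labels give the strain C57Bl6/J for both groups. The knockout mice came from Amgen. Tnfsf10 encodes Trail, a tumour necrosis factor relative that binds death receptors. No treatment is given for either group. Nothing in the labels says that the samples of a group came from separate animals, so p-values measure only the spread between these samples.

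Arterial tone is set by smooth muscle of the vessel wall, which contracts when peptide hormones, catecholamines or serotonin bind receptors on its surface. The receptors on the list of 9 genes couple mainly to Gq proteins and phospholipase C, which release calcium inside the cell. Endothelin is made as a long precursor, mainly by the endothelium, and acts on the neighbouring muscle through the type A receptor. The type B receptor sits largely on endothelium, where it leads to release of nitric oxide and clears endothelin from the blood. The medial cells of large conduit arteries and those of small resistance arteries carry different mixtures of these receptors.

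The 250 bases upstream of the annotated start are shown for Avpr1a and Htr2b, whose mean signal was higher in the knockout group by the most, and for Ednrb, whose knockout mean was lower whether or not the array labelled wild type 1 was kept. The sequences are from RefSeq (GRCm38.p6), printed 5′ to 3′ on the strand of the gene. The windows are chr10:122448249-122448498 (plus strand) for Avpr1a, chr1:86111981-86112230 (minus strand) for Htr2b and chr14:103843702-103843951 (minus strand) for Ednrb. Capitals mark matches to a TATA box or an AP-1 site.
Avpr1a: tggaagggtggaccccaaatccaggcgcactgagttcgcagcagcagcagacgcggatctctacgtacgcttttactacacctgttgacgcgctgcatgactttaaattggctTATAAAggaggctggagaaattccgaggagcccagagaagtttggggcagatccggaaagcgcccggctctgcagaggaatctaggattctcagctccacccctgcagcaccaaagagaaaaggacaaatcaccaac
Htr2b: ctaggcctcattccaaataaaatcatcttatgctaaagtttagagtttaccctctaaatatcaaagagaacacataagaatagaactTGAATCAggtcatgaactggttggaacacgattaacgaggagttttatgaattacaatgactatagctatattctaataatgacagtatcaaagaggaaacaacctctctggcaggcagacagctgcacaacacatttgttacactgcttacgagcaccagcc
Ednrb: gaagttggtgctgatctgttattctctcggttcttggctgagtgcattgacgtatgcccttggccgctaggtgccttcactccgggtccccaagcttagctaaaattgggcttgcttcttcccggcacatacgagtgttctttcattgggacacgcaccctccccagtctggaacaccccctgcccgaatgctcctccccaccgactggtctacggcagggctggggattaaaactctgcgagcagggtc

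Promoter entries were found for 6 of the 9 genes, with 7 windows in all. Each window was searched on both strands for 5 motifs, and no matches overlapped. The motif letters were TATAAA for the box of that name, and CACGTG for the E-box that clock and other helix-loop-helix factors bind. An AP-1 site was searched as TGANTCA. The cyclic AMP response element was searched as TGACGTCA, and a GATA factor site as AGATAA. In Avpr1a, TATAAA began 137 bases before the annotated start, and 12.4% of 32851 windows of this length hold that motif. In Htr2b, TGAATCA began 163 bases before the start, and in 1 of the 2 windows of Adra1b, TGAGTCA began 198 bases before it. The AP-1 letters occur in 6.75% of windows. The windows of Ednrb, Edn1 and Ednra held none of the 5 motifs. The share of windows with a match was 6.02% for CACGTG, 1.55% for TGACGTCA and 9.99% for AGATAA. The share of G and C was 53.6% in the Avpr1a window, 37.6% in that of Htr2b and 56.8% in that of Ednrb, against a median of 52.4%. These matches describe letters only, since no binding was measured.

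The arrays carried different mixtures of tissue, and 1 array stood apart. Tnfsf10 read 8.42 (log2) on wild type 1, 4.90 and 4.85 on wild type 2 and 3, and 4.09 to 5.02 on the knockout arrays. Wild type 2 and 3 were thus not set apart from the knockout arrays by the targeted gene. Its mean over the 6 arrays was 5.29, below the filter on dim signals at 5.90. Why its signal was low on wild type 2 and 3 was not tested. The markers listed for vascular smooth muscle had a median of 9.38 to 10.51 over 12 genes on the 6 arrays. Whether they stand for muscle of vessels or of other organs was not tested. On the array labelled wild type 1, 10 of 10 skeletal muscle markers and 9 of 9 of stratified squamous epithelium lay more than 2-fold under all other arrays. The list medians there were 6.11 and 4.92, against 11.85 to 12.43 and 10.98 to 11.39 on the other 5 arrays. The label of whole aorta names neither tissue, and their source was not tested. On wild type 1, 5 of 6 brown fat markers, 6 of 6 of white fat and 5 of 12 of endothelium exceeded every other array by over 2-fold. Genes of stomach epithelium had a list median of 12.43 on knockout 2, 7.27 on wild type 3 and 4.93 to 5.47 on the others. Gkn1, of that list, read 12.97 on knockout 2, 8.99 on wild type 3 and 5.04 to 5.51 on the others. Wild type 3 stays in the comparison without wild type 1. Those of lung epithelium had 8.02 on knockout 1 and no more than 5.55 on the others. Array names below are those of the labels, and differences are given for all 6 arrays and again for the 5 arrays without wild type 1. In whole tissue, fewer cells of a type and less RNA per cell cannot be told apart.

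**Figure D1:**
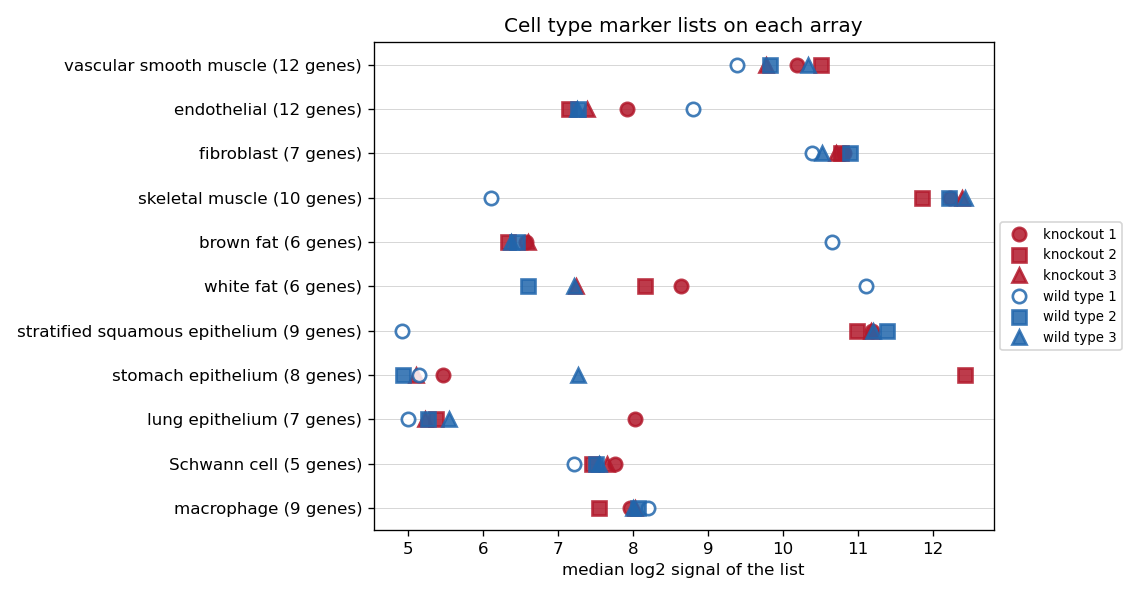
Median log2 signal (horizontal axis) of each list of cell type markers on each of the 6 arrays, with red for knockout, blue for wild type and an open circle for wild type 1. Wild type 1 lies at 6.11 for skeletal muscle, where the other arrays lie between 11.85 and 12.43, and at 10.65 for brown fat, where they lie between 6.33 and 6.60.

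Across the receptors and endothelin, no gene passed the test between knockout and wild type. Avpr1a had the largest difference in size, 0.73 on the log2 scale, and was the 1 gene of the 6 whose groups did not overlap. Such a gap was found with higher knockout values for 2.79% of all 21789 probe sets, and with lower values for a further 3.47%. On the 5 arrays without wild type 1, where Avpr1a was again the 1 gene of the 6, the share with higher values was 7.01%. Agtr1a was set apart by a single array, wild type 1, where it was highest. Edn1 and Adra1b had means within 0.13 of each other between the groups, Ednrb had the lower mean in the knockout and Htr2b the higher. Of the 6 genes, 0 passed in limma at an adjusted p under 0.05, against 0% of 13073 probe sets tested and 0% of the 21789 in the fit without a filter. At an unadjusted limma p under 0.05 there was 1 of the 6, Avpr1a, against 83 probe sets (0.635%), of which 13 (0.0994%) were higher in the knockout. Those 13073 probe sets hold 4 of the 6 genes, and in the fit without a filter, which holds all 6, the counts were 273 (1.25%) and 144 (0.661%). On the 5 arrays other than wild type 1 there were 0 of the 6, against 186 probe sets (1.42%), or 367 (1.68%) with no filter, and again none of all the probe sets passed after adjustment. The median difference of the 6 genes was -0.04 on 6 arrays and 0.04 on 5, beside -0.0008 and 0.01 over all genes.

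**Figure D2:**
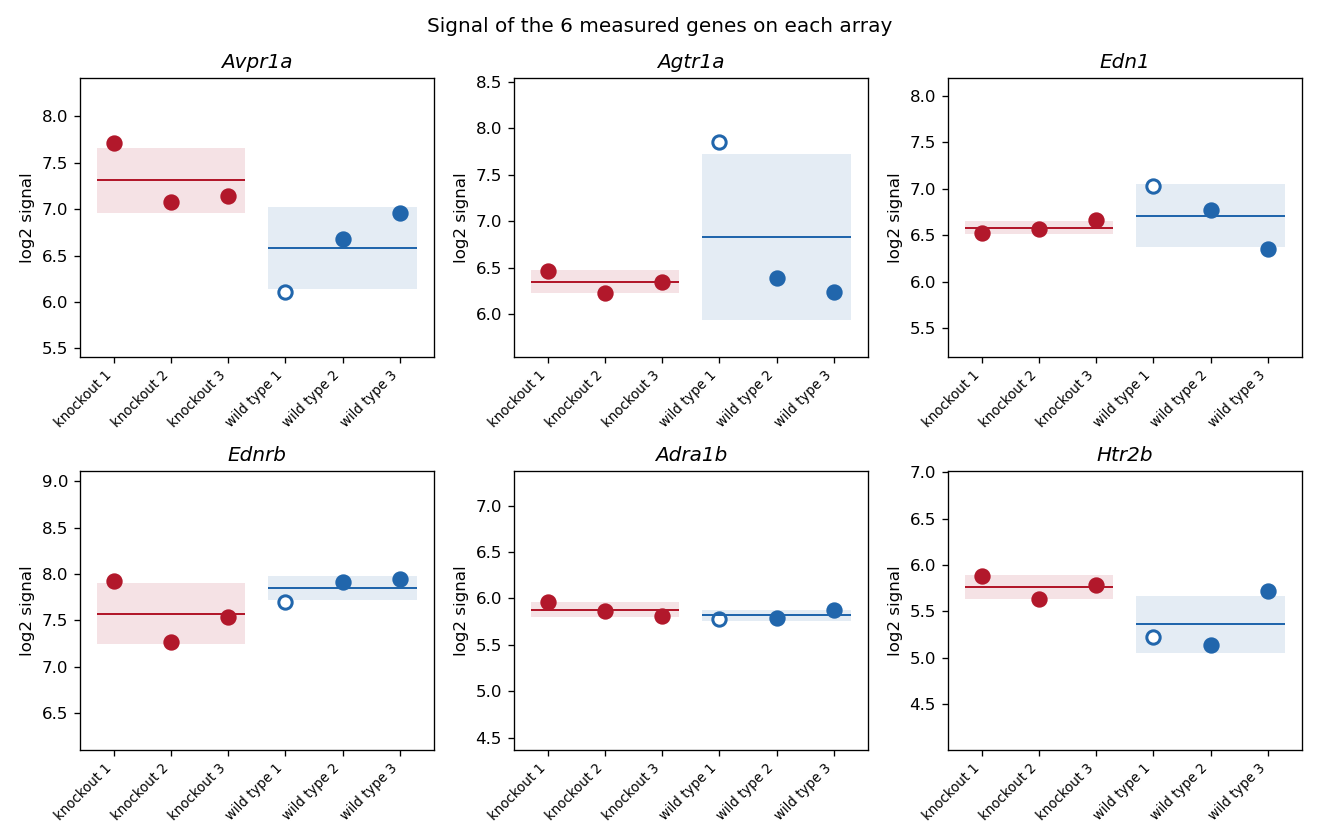
Log2 signal (vertical axis, with the same span in each panel) of the 6 measured genes on each array, with lines and bands for the group mean and SD (n = 3). Avpr1a lies between 7.08 and 7.71 on the knockout arrays and between 6.11 and 6.96 on the wild-type arrays, and the open circle of wild type 1 stands alone at 7.85 for Agtr1a.

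Avpr1a encodes the V1a receptor, through which vasopressin constricts vessels. Its log2 signal was 7.71, 7.08 and 7.14 on knockout 1, 2 and 3, and 6.11, 6.68 and 6.96 on wild type 1, 2 and 3. All knockout arrays were above all wild-type arrays, with knockout 1 highest, wild type 1 lowest, and a gap of 0.12 between knockout 2 and wild type 3. Knockout arrays averaged 7.31 ± 0.35 (SD, n = 3) and wild-type arrays 6.58 ± 0.44 (SD, n = 3). The difference was 0.73 (1.66-fold, SE 0.28, 95% interval 0.03 to 1.42, limma adjusted p = 0.911). The exact two-sided permutation p was 0.1, the smallest that 3 arrays against 3 can give. Among the 13073 probe sets past the filter, 176 (1.35%) were likewise higher without overlap, and on 5 arrays 556 (4.25%).

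The Avpr1a difference without wild type 1 was 0.49 (1.40-fold, SE 0.21, 95% interval -0.03 to 1.00, limma adjusted p = 0.997). The exact permutation p on these 5 arrays was 0.2, the smallest this two-sided test can give with 3 against 2. Knockout 1, the array with lung genes, held the highest Avpr1a value. Leaving out wild type 1 and knockout 1 together gave 0.29 (SE 0.15). The smooth muscle list had medians of 9.77 to 10.51 on the knockout arrays and 9.38 to 10.33 on the wild-type arrays. Whether the list stands for vessel muscle on every array was not tested. The list was lowest on wild type 1 and highest on knockout 2, while Avpr1a was lowest on wild type 1 and highest on knockout 1. Of the 12 markers, 2 were over 2-fold below all other arrays on wild type 1, Des and Actg2, and Smtn, Myocd and Itga8 were highest there. The part of tissue mixture in the Avpr1a difference was not tested.

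Its ligand and sister receptors were measured beside it. The vasopressin gene Avp differed by 0.02 (SE 0.14) and the oxytocin gene Oxt, whose peptide is a close relative, by 0.13 (SE 0.16). On 5 arrays these values were 0.07 and 0.16. The Avp signal was 5.84 to 6.21 over the 6 arrays, near the filter at 5.90, and whether it stands above background is not known. Avpr1b, the receptor of the pituitary, and Avpr2, the receptor of the kidney collecting duct, did not pass the filter on dim signals, nor did the oxytocin receptor Oxtr. Their differences were 0.0023 (SE 0.10), -0.0026 (SE 0.10) and -0.15 (SE 0.34), and on 5 arrays 0.01, 0.0035 and 0.19. In this group of 5 genes, 0 passed the test, with 3 means higher and 2 lower in the knockout on 6 arrays.

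Agtr1a encodes the main rodent type 1 angiotensin receptor, which carries the pressor action of angiotensin II. The signal was 6.46, 6.23 and 6.35 on knockout 1, 2 and 3, and 7.85, 6.39 and 6.24 on wild type 1, 2 and 3. One array, wild type 1, was 1.39 above the next highest (2.62-fold), and the other 5 arrays lay within 0.23 of each other. The group means were 6.35 ± 0.12 (SD, n = 3) in the knockout and 6.83 ± 0.89 (SD, n = 3) in the wild type, and the groups overlapped. The difference on 6 arrays was -0.48 (SE 0.44, 95% interval -1.57 to 0.61, limma adjusted p = 0.911, exact permutation p = 0.6).

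The sign of the Agtr1a difference turned without wild type 1, to 0.03 (SE 0.13, 95% interval -0.28 to 0.35, limma adjusted p = 0.997). Wild type 1 was also the array on which the brown fat list had a median of 10.65 against 6.33 to 6.60, and the white fat list 11.10 against 6.60 to 8.64. Among the 5 other arrays the white fat list was highest on knockout 1, at 8.64, and so was Agtr1a, while wild type 2, with the next highest Agtr1a value, had the lowest white fat median. The part of fat in the Agtr1a signal was not tested.

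Other genes of the angiotensin system gave 0 passes among 8 measured of 12 listed, 5 of them past the filter. Agt, which encodes the precursor angiotensinogen, differed by 0.40 (SE 0.26) and by 0.12 (SE 0.13) without wild type 1, where it was lowest at 5.79 against at least 6.60. Ace, the converting enzyme of endothelium, differed by 0.03 (SE 0.41), and by 0.45 (SE 0.24, limma adjusted p = 0.997) on 5 arrays. On those 5 its groups did not overlap, as for 556 (4.25%) of 13073 probe sets with higher knockout values. Ace had 7.47 on knockout 1 and 7.80 on wild type 1, the arrays with the highest endothelial list medians (7.92 and 8.80), and 6.41 to 6.77 on the rest. Knockout 1 was also the array with lung genes. The part of endothelium or lung in the Ace signal was not tested. Atp6ap2, the prorenin receptor, differed by 0.16 (SE 0.21), Enpep, an aminopeptidase that degrades angiotensin II, by -0.09 (SE 0.34), and Agtrap, a protein that binds the type 1 receptor, by 0.04 (SE 0.20). On 5 arrays these values were -0.05, 0.21 and 0.21. The type 2 receptor Agtr2 did not pass the filter, with 5.02 to 5.57 over the 6 arrays, a difference of 0.08 and on 5 arrays -0.03. The list had a median difference of 0.06 (0.11 on 5 arrays), and 6 of 8 genes had the higher mean in the knockout.

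Edn1 encodes preproendothelin-1, the precursor of the constrictor peptide. Its signal was 6.52, 6.57 and 6.66 on knockout 1, 2 and 3, and 7.03, 6.77 and 6.35 on wild type 1, 2 and 3. The wild-type arrays spanned both the highest and the lowest value, and the knockout arrays lay between them. The means were 6.58 ± 0.07 (SD, n = 3) in the knockout and 6.71 ± 0.34 (SD, n = 3) in the wild type. The difference was -0.13 (SE 0.19, 95% interval -0.60 to 0.33, limma adjusted p = 0.911, exact permutation p = 0.6). It turned to 0.02 without wild type 1 (SE 0.15, 95% interval -0.35 to 0.39, limma adjusted p = 0.997). Wild type 1, where Edn1 was highest, also had the highest endothelial list median, 8.80 against 7.15 to 7.92. Knockout 1 had the next highest endothelial median and the second lowest Edn1 value. The part of endothelial content in the Edn1 signal was not tested.

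Ednrb, the type B endothelin receptor, had 7.92, 7.27 and 7.53 on knockout 1, 2 and 3, and 7.70, 7.91 and 7.94 on wild type 1, 2 and 3. The low values were knockout 2 and 3, while knockout 1 lay between wild type 2 and 3, so the groups overlapped. The means were 7.57 ± 0.33 (SD, n = 3) and 7.85 ± 0.13 (SD, n = 3), a difference of -0.27 (SE 0.19, 95% interval -0.75 to 0.20, limma adjusted p = 0.911, exact permutation p = 0.3). Without wild type 1 it was -0.35 (SE 0.19, 95% interval -0.81 to 0.11, limma adjusted p = 0.997). Ednrb was the 1 gene of the 6 with a lower knockout mean on the 5 arrays. Without knockout 2, the array with the highest stomach list median, the difference on the remaining 5 arrays was -0.12. It was -0.52 without wild type 1 and knockout 1 (SE 0.15). Knockout 1 is the array with lung genes, and the part of lung tissue in the Ednrb signal was not tested.

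The rest of the endothelin system had 6 genes measured of 6 listed, and 0 passed. The processing enzymes Ece1 and Ece2, which cut the precursor to active endothelin, differed by 0.05 (SE 0.15) and -0.10 (SE 0.18), and Ece2 by 0.01 on 5 arrays. On 5 arrays Ece1 was 8.38 to 8.62 on the knockout arrays and 8.34 to 8.38 on the wild-type arrays, a difference of 0.15 (SE 0.12, limma adjusted p = 0.997). Mme, neprilysin, a peptidase that degrades endothelin, had 10.17 on wild type 1 and 6.56 to 7.41 elsewhere. Its difference of -0.88 (SE 0.96) turned to 0.26 (SE 0.22) without that array. Edn2 and Edn3, which encode the other endothelin peptides, did not pass the filter and differed by 0.11 (SE 0.18) and 0.04 (SE 0.13), and on 5 arrays by 0.09 and 0.13.

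Adra1b encodes an alpha-1 adrenergic receptor, which answers noradrenaline released from sympathetic nerves. Its mean of 5.85 lay below the filter at 5.90, so its test is from the fit on all 21789 probe sets. The signal was 5.96, 5.86 and 5.81 on knockout 1, 2 and 3, and 5.78, 5.79 and 5.88 on wild type 1, 2 and 3. All arrays lay within 0.18 of each other and the groups overlapped. The difference was 0.06 (SE 0.10, 95% interval -0.19 to 0.31, limma adjusted p = 0.947, exact permutation p = 0.4), 0.04 (SE 0.13) without wild type 1, and -0.01 after quantile normalization. Whether a signal this dim stands above background is not known, since no detection calls were used. Of 6 other adrenergic receptors listed, the dim gene Adra2c was measured, with a difference of 0.08 (SE 0.12), and 0.11 on 5 arrays.

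Htr2b, the 2B serotonin receptor of vessels and heart valves, also lay below the filter, with a mean of 5.56. The signal was 5.88, 5.63 and 5.78 on knockout 1, 2 and 3, and 5.22, 5.14 and 5.72 on wild type 1, 2 and 3. Wild type 1 and 2 were low, while wild type 3 lay between the knockout arrays, so the groups overlapped. The means were 5.76 ± 0.13 (SD, n = 3) and 5.36 ± 0.31 (SD, n = 3). The difference was 0.40 (1.32-fold, SE 0.18, 95% interval -0.04 to 0.84, limma adjusted p = 0.946, exact permutation p = 0.2) in the fit on all probe sets. Without wild type 1 it was 0.33 (SE 0.20, 95% interval -0.13 to 0.79, limma adjusted p = 0.999), and without wild type 1 and 2 together it was 0.05.

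Other serotonin receptors and the transporter were dim, with 1 of 8 past the filter. That gene, Htr1b, differed by 0.01 (SE 0.31) and by 0.34 (SE 0.18) without wild type 1, where it was highest at 6.73. Htr2a, the receptor of serotonin constriction in many arteries, had 6.33 on wild type 1 and 5.16 to 5.65 elsewhere, a difference of -0.19 (SE 0.30), and 0.13 (SE 0.18) on 5 arrays. In this list 0 genes passed and the median difference was -0.01 on 6 arrays.

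**Figure D3:**
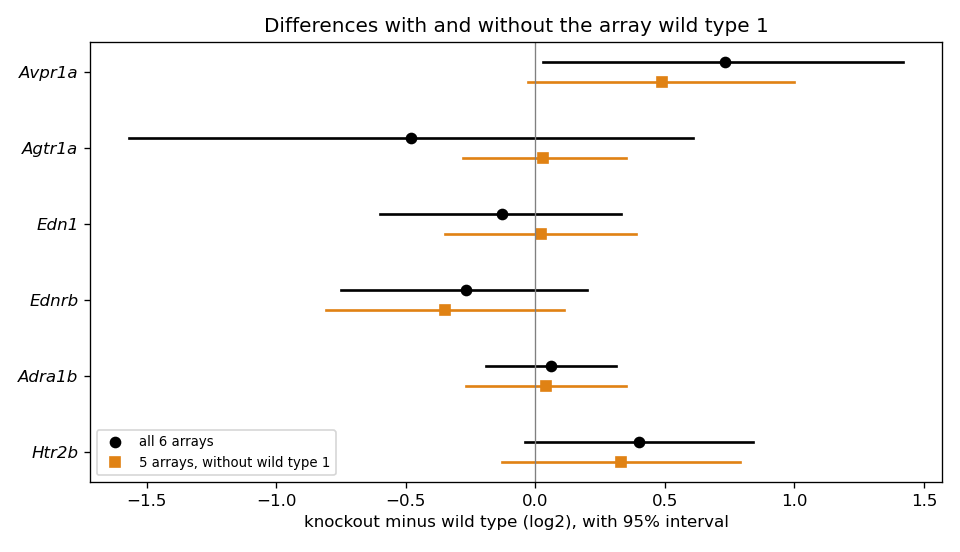
Difference of knockout minus wild type (horizontal axis, log2) with its 95% interval for each of the 6 genes, as black circles for all 6 arrays and orange squares for the 5 arrays without wild type 1. Avpr1a moves from 0.73 to 0.49, its interval then reaching -0.03, and Agtr1a moves from -0.48 to 0.03.

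Receptors from a list headed other constrictor receptors were then counted. Whether each of them constricts in these samples was not tested. Of 17 measured, 9 passed the filter and 0 passed the test, with 6 means higher and 11 lower in the knockout and a median of -0.04 (on 5 arrays 7 higher, 10 lower and -0.04). P2ry14, a receptor for UDP-glucose, had 5.65 on wild type 1 and 7.75 to 8.48 elsewhere. Its difference was 0.72 (SE 0.78), and -0.18 (SE 0.22) without that array. Ptger3, a prostaglandin E2 receptor, had 9.16 on wild type 1 and 6.55 to 7.27 elsewhere, and its difference turned from -0.46 (SE 0.69) to 0.36 (SE 0.16). Bdkrb2, the main bradykinin receptor, differed by 0.20 (SE 0.25), and the thromboxane receptor Tbxa2r, which lay within 6.23 to 6.39 on all arrays, by -0.04 (SE 0.10), and on 5 arrays both by -0.04. Npy1r, the neuropeptide Y receptor of sympathetic constriction, was chosen after its values were seen. It was 5.41, 4.89 and 5.30 on knockout 1, 2 and 3, and 6.99, 5.94 and 5.48 on wild type 1, 2 and 3, so its groups did not overlap. Npy1r lay below the filter and differed by -0.94 (SE 0.39, limma adjusted p = 0.946), and by -0.52 without wild type 1. On all 21789 probe sets, 756 (3.47%) were lower in the knockout without overlap.

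Downstream of the receptors, 25 genes of Gq and G12 signalling and calcium release were measured and 0 passed, with 10 means higher and 15 lower in the knockout. On 5 arrays the split was 20 higher and 5 lower, with a median of 0.06 beside 0.01 over all genes. Gnaq, the Gq subunit itself, differed by -0.03 (SE 0.12), and by 0.04 on 5 arrays. Plcb4, a phospholipase C, was 8.38 to 8.50 on the knockout arrays and 8.54 to 9.52 on the wild-type arrays. Of all 21789 probe sets, 756 (3.47%) were likewise lower in the knockout without overlap. The Plcb4 difference was -0.46 (SE 0.28), and -0.15 (SE 0.11) without wild type 1. Prkcd, a protein kinase C, differed by 0.45 (SE 0.25) and Itpr3, an inositol trisphosphate receptor, by 0.62 (SE 0.41). Both were highest on knockout 2, the array with the highest stomach list median, at 9.25 and 8.68. On 5 arrays they differed by 0.34 and 0.38. Cacna1d, a calcium channel subunit, differed by 0.27 (SE 0.20), and by 0.30 on 5.

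Genes that turn receptor signals off gave 0 passes among 9. Rgs2, an inhibitor of Gq, had 10.13 on wild type 1 and 8.20 to 8.57 elsewhere, and its difference of -0.55 (SE 0.52) became 0.05 (SE 0.14) without that array. Rgs4, of the same family, differed by -0.27 (SE 0.38), the arrestin gene Arrb2 by -0.18 (SE 0.19) and the receptor kinase gene Grk6 by -0.15 (SE 0.21). On 5 arrays these values were 0.12, -0.01 and 0.05. Over the list, 7 of 9 means were lower on 6 arrays and 8 of 9 were higher on 5.

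Opposing vasodilator genes were measured for 20 of 24 listed, and 0 passed. Prkg1, the cyclic GMP-dependent kinase that relaxes smooth muscle, was 7.40 to 7.59 on the knockout arrays and 7.21 to 7.39 on the wild-type arrays. The gap lay between 7.40 on knockout 3 and 7.39 on wild type 3. Of the 13073 probe sets past the filter, 176 (1.35%) were likewise higher without overlap. The Prkg1 difference was 0.18 (SE 0.11, limma adjusted p = 0.911), and 0.14 (SE 0.11) without wild type 1. Npr2, a natriuretic peptide receptor, differed by -0.21 (SE 0.16), Vipr2, a receptor of vasoactive intestinal peptide, by 0.41 (SE 0.32), and the prostacyclin synthase gene Ptgis by -0.25 (SE 0.22). On 5 arrays they differed by -0.07, 0.13 and -0.02. Nos3, endothelial nitric oxide synthase, had 6.95 on wild type 1 and 6.16 to 6.48 elsewhere, a difference of -0.11 (SE 0.24), and 0.14 (SE 0.13) on 5 arrays. Of the 20 means, 8 were higher in the knockout on 6 arrays and 14 on 5.

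Over all 9 lists, which hold 99 measured genes, 0 passed on 6 arrays and 0 on 5. Of the 71 past the filter, 0 had an unadjusted limma p under 0.05 in either fit. Below the filter, Npy1r had an unadjusted limma p of 0.0516 on 6 arrays and 0.0447 on 5, from the fits on all 21789 probe sets. In those fits, 273 (1.25%) and 367 (1.68%) of all probe sets had a p under 0.05. On 6 arrays 44 means were higher in the knockout and 55 lower, and without wild type 1 71 were higher and 28 lower. Over all 19938 genes the split was 9927 higher on 6 arrays and 10595 on 5. Wild type 1 was over 2-fold above every other array for 9 of the 99 genes and over 2-fold below for 2, and among all 19938 genes for 944 and 945.

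**Figure D4:**
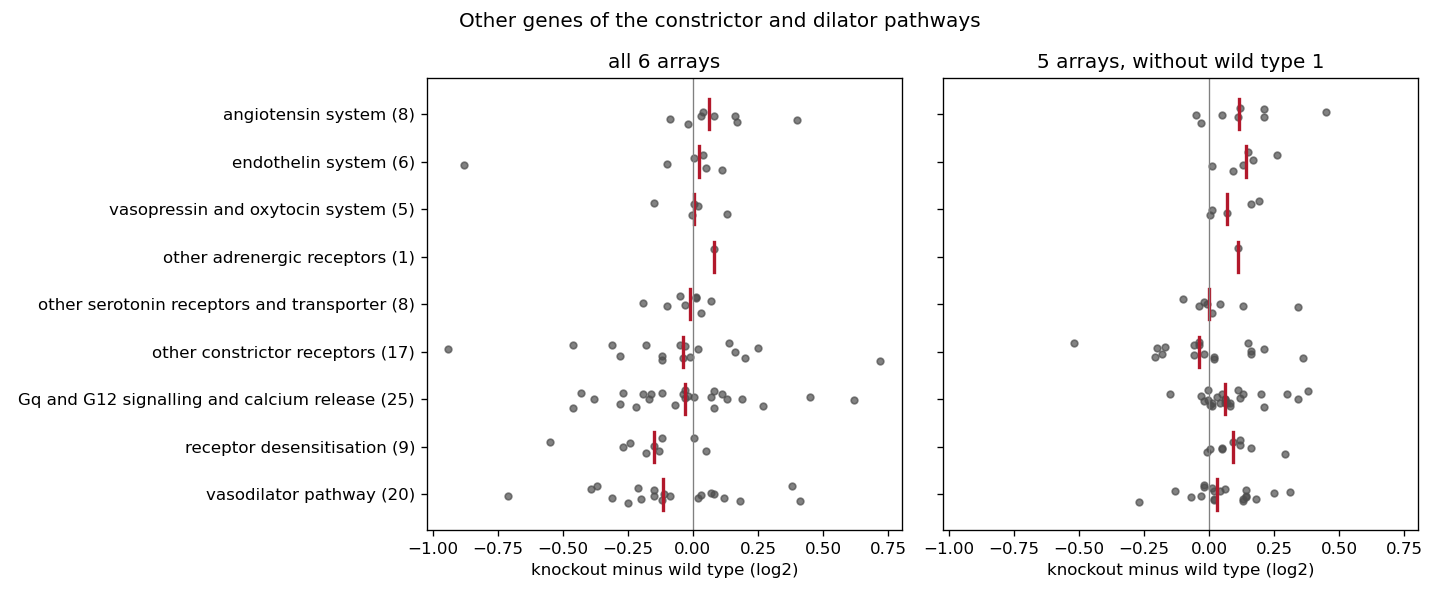
Difference of knockout minus wild type (horizontal axis, log2) of each measured gene (grey points, number in brackets) in 9 lists, with red bars for the list median, on all 6 arrays and without wild type 1. The list of desensitisation genes moves from a median of -0.15 to 0.09.

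Genes with the pattern most like each receptor were ranked by Pearson r over the 6 arrays among 11881 genes, as a description of so few arrays. For Avpr1a these were Egfl8 (r = 0.992), Camk2n1 (0.979) and Hs3st6 (0.977), and 20 genes exceeded 0.95. For Agtr1a, 1191 genes exceeded 0.95, led by Mrps6, Cd200 (0.999) and Vgll4 (0.998), all of them highest on wild type 1 (9.08, 8.92 and 9.25). For Ednrb they were Pqbp1 (0.979), Wfdc17 (0.974) and Haus5 (0.972), and 16 genes exceeded 0.95. For Edn1, 45 genes did, led by Unc50 (0.992), Ell (0.988) and Ric1 (0.986). For Htr2b, 9 did, led by Sox1 (0.984), Art5 (0.979) and Kcna2 (0.976), and for Adra1b 49, led by 1700086O06Rik (0.994), Krtap5-3 and 5730522E02Rik (both 0.992). Over the 5 arrays without wild type 1, r was 0.942 to 0.996 for the 18 genes, with Cd200 lowest.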

How the data were processed

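One-colour Affymetrix arrays were hybridised with RNA of 6 samples. RNA was, per the labels' protocols, extracted with Trizol and labelled with biotin. The deposited table holds log2 values of 35399 probe sets. The log base was read from their range, 1.55 to 13.96, and array medians were 6.36 to 6.48. The submitters' processing notes name MAS5. The sources used here do not state how background, probe summary and scaling were handled, which could change small differences of dim genes.

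Probe sets were named from the platform annotation. It gives 21789 of them 1 symbol and 1621 several, which were not used, and 11989 are unnamed here. The 2 genotypes were compared by limma 3.58.1, run in R 4.3.3, with an intensity trend, after leaving out the 40% with the lowest mean, and Benjamini-Hochberg adjustment over 13073 probe sets at 0.05. Genes below the filter were taken from a fit on all 21789. The fits were tested on simulated data. Permutation tests used scipy 1.17.1. The genes and lists were chosen with earlier results of these data known. Named were all members, up to 4 genes per pathway list with the lowest p, the 3 genes most like each member, and Tnfsf10. Other list genes were chosen after their values were seen. Alternatives were other scalings, a pseudocount of 64, other filters, other moderation, array weights, a replicate block, and leaving out arrays.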

Additional observations from a re-analysis of the deposited data

How the results depend on the processing

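No probe set passed in limma under any of the 22 alternatives, and the count was 0 without each array in turn. Over 123 runs of the 6 genes, none passed (lowest adjusted p = 0.615) and 17 turned in sign. Leaving out 1 array gave 0.49 to 0.92 for Avpr1a, -0.77 to 0.03 for Agtr1a, -0.32 to 0.02 for Edn1, -0.45 to -0.12 for Ednrb, 0.01 to 0.09 for Adra1b and 0.29 to 0.58 for Htr2b. Avpr1a, Ednrb and Htr2b kept their sign in every run, although for Avpr1a groups that do not overlap fix the sign when arrays are left out. With array weights Agtr1a turned to 0.11 and Edn1 to 0.15. Without wild type 1, Agtr1a was 0.03 and Edn1 0.02, also with no filter or with robust moderation, both added after seeing the data. Without wild type 1 and a further array, Agtr1a was 0.09 (knockout 2), 0.03 (knockout 3) and 0.11 (wild type 2), and Edn1 0.05 (knockout 1), 0.03 (knockout 2) and 0.24 (wild type 2). The other such runs kept the sign of the 6 arrays, with Agtr1a at -0.03 (knockout 1) and -0.05 (wild type 3) and Edn1 at -0.01 (knockout 3) and -0.19 (wild type 3). Adra1b turned to -0.01 with quantile normalization, to -0.0037 without wild type 1 and knockout 1, and to -0.01 without wild type 1 and 2. Why these signs turned was not tested beyond the arrays left out.

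With the replicate number as a block, 0 probe sets passed, and Avpr1a differed by 0.73 (SE 0.34), so no call changed. Residuals of same-numbered arrays correlated at 0.0922, -0.245 and 0.212, and those of differently numbered arrays at -0.335 to 0.419. With residuals taken within groups of 3 arrays, these values cannot show whether the numbers pair the samples. The labels do not say that they do. Each gene had 1 probe set, so means over probe sets gave no further value, and the 60% filter, at 6.99, left Ednrb alone among the 6. Signal over background was not used, which limits what can be said of Adra1b and Htr2b.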
